A study of Mus musculus with 60 samples.

Results

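The genes described here are 40 regulators of the mouse cell cycle: cyclins, cyclin-dependent kinases (CDKs), CDK inhibitors, E2F and DP transcription factors, pocket proteins, Cdc25 phosphatases with the kinase Wee1, and mitotic kinases with activators of the anaphase-promoting complex (APC/C). They were chosen by symbol, with earlier results of these data known, and all 40 were found among the 24260 gene symbols in the files. Where a gene had several RefSeq transcripts, the transcript with the highest RPKM (reads scaled by gene length and by library depth) summed over the libraries stood for it; 64 transcripts of these genes were listed. Of the 40 genes, 35 had a mean level of at least 0.5 RPKM and entered the test, and Cdkn2a, Cdkn2b, Cdkn2c, Cdkn2d and Rb1 did not.

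Nascent RNA was measured in E14 cells, a line of mouse embryonic stem cells (mESC) grown on gelatin in serum with LIF, 72 h after transfection of an siRNA. The siEsrrb group, 2 libraries, received an siRNA against Esrrb, an orphan nuclear receptor that helps to keep mESC undifferentiated. The siCtrl group, 2 libraries, received a control siRNA, and no other genotype or agent separates the groups in the labels. Cells were fractionated, and the RNA sequenced was the part bound to chromatin, which is rich in transcripts still being made. The other 56 samples of the series were not analysed here.

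In the textbook cell cycle, mitogens raise D-type cyclins, which with Cdk4 or Cdk6 phosphorylate the pocket proteins Rb1, Rbl1 and Rbl2 and so free E2F factors, which switch on Ccne1, Ccne2, Ccna2, Cdk1 and the replication genes. Cdkn1b and the Cdkn2 family hold the CDKs back, Wee1 and the Cdc25 phosphatases set the phosphorylation of Cdk1 and Cdk2, and cyclin B with Cdk1, Plk1 and the Aurora kinases drives mitosis until Cdc20 and Fzr1 direct the APC/C against cyclins and securin. Mouse embryonic stem cells are known for a short G1 phase, low D-type cyclins and little of the Cdkn2 inhibitors.

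The libraries held 22363943 and 61857158 reads for siEsrrb replicates 1 and 2, and 24764879 and 68002338 reads for siCtrl replicates 1 and 2, as recovered from the steps of the RPKM values. Replicates 1 and 2 thus differed in depth, and the submitters' processing notes name Bowtie and Bowtie2 for replicate 1 only, so values are also given within each replicate number. Nascent Esrrb, taken as a check of the labels, stood at 1.50 and 2.08 scaled RPKM in siEsrrb libraries and at 3.39 and 3.10 in siCtrl libraries, that is 44.2% of siCtrl in replicate 1 and 67.0% in replicate 2 (log2 fold change -0.72, SE 0.15, limma adjusted p = 0.280). Mature Esrrb mRNA was not examined here, so these values do not measure the size of the knockdown. Stem cell markers were present, with a summed level over 10 genes of 124 and 112 in siEsrrb libraries and 134 and 129 scaled RPKM in siCtrl libraries, with members that differed in direction: 5 were lower without overlap, among them Zfp42 (46.6% and 62.8% of siCtrl in replicates 1 and 2), Fgf4 (58.4% and 64.9%), Dppa5a (63.0% and 65.0%) and Nanog (66.7% and 73.1%), and Pou5f1 was higher without overlap (169% and 108%). Of 12 fibroblast markers, 4 passed the level filter and 1 (Lum) was listed at 0 in every library; their sum, 17.0 and 18.5 in siEsrrb libraries against 15.5 and 17.5 scaled RPKM in siCtrl libraries, was mostly Fn1, which stood at 98.0% and 98.5% of siCtrl, while Tagln (198% and 156%) and Acta2 (208% and 158%) were higher without overlap. The sum of 8 primitive endoderm markers, 0.823 and 1.44 in siEsrrb libraries against 3.04 and 2.89 scaled RPKM in siCtrl libraries, was mostly Lama1, at 0.552 and 1.16 against 2.79 and 2.58, the only one to pass the filter; of the other 7, Dab2 was the highest, at 0.118 and 0.131 against 0.089 and 0.101. Sums of 8 neuroectoderm markers were 10.8 and 9.88 in siEsrrb libraries against 8.14 and 7.09 in siCtrl libraries. Nes was the largest part, at 5.92 and 5.31 against 3.02 and 2.66. Ncam1 was lower, at 0.271 and 0.417 against 0.943 and 0.760. Of the 5 tested, 3 (60%) were higher and 1 (20%) lower without overlap, against 21.9% and 22% of all tested genes. Neurog2 was listed at 0 throughout. For 8 trophectoderm markers the sums overlapped between groups, at 16.5 and 10.5 against 11.0 and 7.89, mostly Krt8 and Krt18. Both keratins overlapped too, and Tead4 was lower without overlap (68.8% and 85.2% of siCtrl). Of the 3 tested, 0 were higher and 1 (33.3%) lower without overlap, against 21.9% and 22% of all tested genes. Below the filter, Gata3, Hand1 and Elf5 were higher and Eomes lower without overlap. The part of these markers in the results was not tested. In bulk RNA, fewer cells in a phase or of a type and less RNA per cell cannot be told apart.

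Most of the machinery had estimates close to the siCtrl level, but these do not show that levels were kept. Over the tested cell cycle genes, the 95% interval reached a median of 0.297 on the log2 scale to either side of the estimate. Of the 35 tested genes, 21 (60%) had a log2 fold change smaller than 0.1 in size, where 49.5% of all 9739 tested genes did, and the median over the 35 was 0.01, against -0.00087 over all tested genes. No cell cycle gene passed limma's test at an adjusted p of 0.05, and 0% of all tested genes did: the smallest adjusted p was 0.276 among these genes (Ccnd3) and 0.250 among all. At an unadjusted p under 0.05 limma called 4 of the 35 (Ccnd3, E2f2, Cdc20, Plk1), against 11.3% of all tested genes, and 7 of the 35 had a log2 fold change of at least 0.2 in size, against 25.1%. Voom on the recovered reads, also without a replicate block, likewise called 0 genes after adjustment and 5 of the 35 at an unadjusted p under 0.05 (12.2% of all). With the replicate number as a block, voom called 28.3% of all genes (13.2% higher, 15.2% lower) and 10 of the 35, 6 higher and 4 lower; no label says that the numbers pair the libraries. With 2 libraries a group, an exact permutation test of a single gene cannot go below 0.33.

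The groups did not overlap for 12 of the 35 genes (34.3%), against 43.8% of all tested genes. Both siEsrrb libraries lay above both siCtrl libraries for 7 (Cdc20, Plk1, E2f6, Ccne2, Ccnb1, E2f7, Wee1), where 21.9% of all tested genes did so, and below them for 5 (Ccnd3, E2f2, Cdk2, Aurka, E2f5), where 22% of all did. These are 20% and 14.3% of the tested cell cycle genes, near or below the background. Within the replicate numbers, 12 of the 35 were higher in siEsrrb in both (background 37.8%) and 13 were lower in both (background 39.6%).

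**Figure D1:**
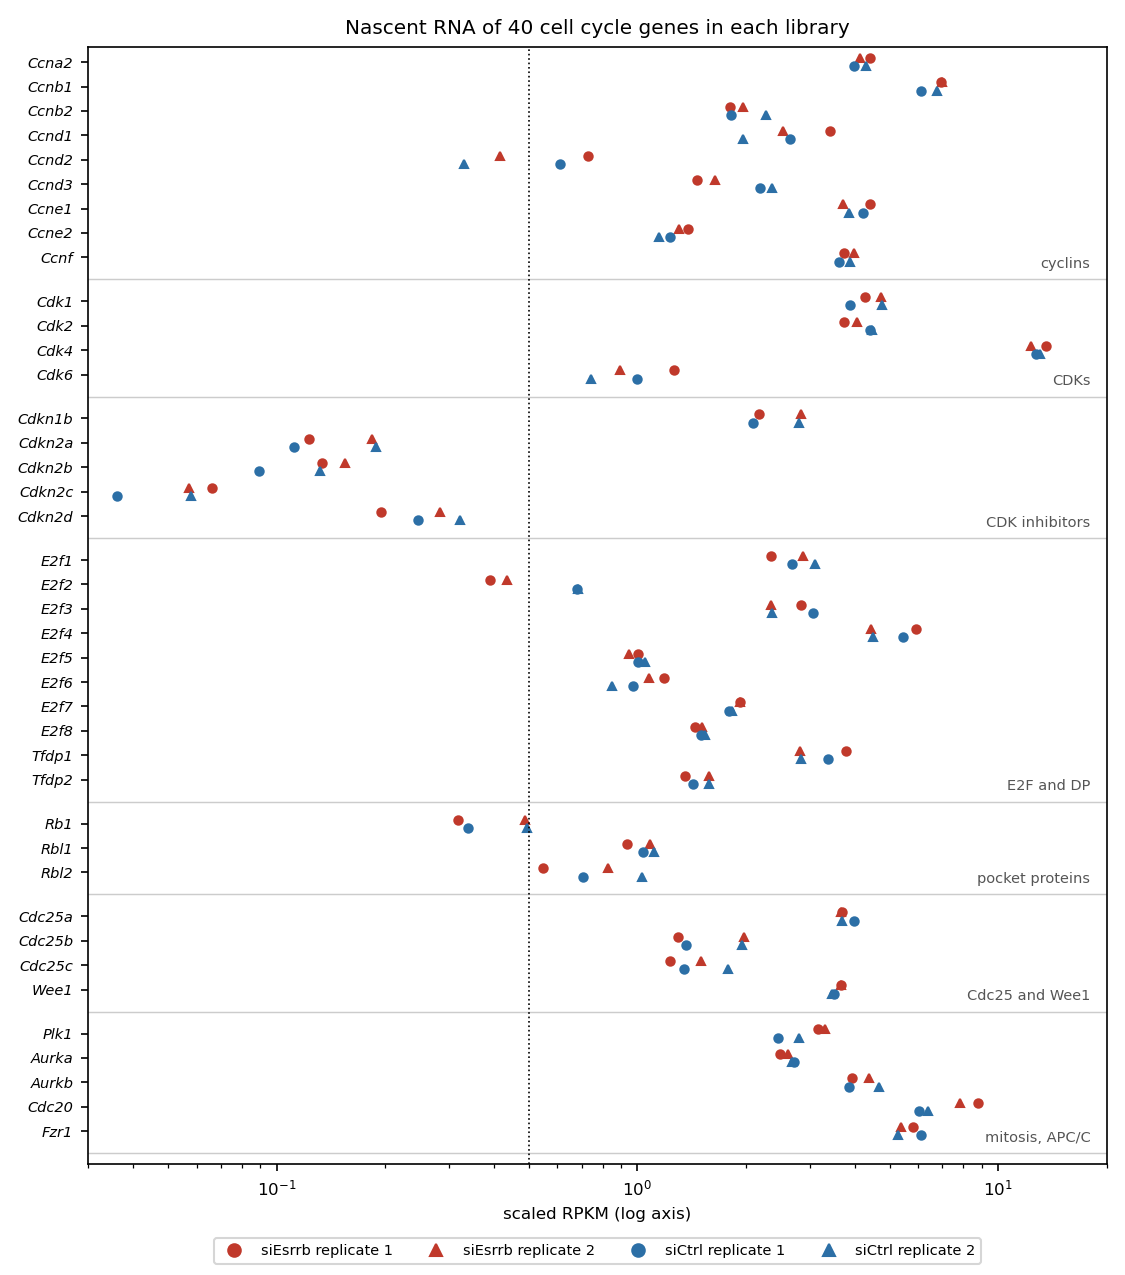
Scaled RPKM (log axis) of the 40 genes in each of the 4 libraries, arranged by role, with siEsrrb in red above siCtrl in blue, circles for replicate 1 and triangles for replicate 2; the dotted line marks the 0.5 RPKM filter. Cdk4 is the highest gene, the 4 Cdkn2 genes lie left of the line, and Ccnd3 and E2f2 show siEsrrb points left of both siCtrl points.

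Among the D-type cyclins, which carry mitogen signals into G1, Ccnd3 was lower and Ccnd1 and Ccnd2 were higher in siEsrrb within each replicate number. Ccnd3 (NM_007632) stood at 1.46 and 1.64 scaled RPKM in siEsrrb libraries, from 187 and 665 reads, and at 2.19 and 2.36 in siCtrl libraries, from 321 and 1080 reads. Both siEsrrb libraries lay below both siCtrl libraries, and the gap was wider than the spread between replicates in either group. The log2 fold change was -0.44 (SE 0.08, limma adjusted p = 0.276), with -0.45 in replicate 1 and -0.42 in replicate 2. Bysl, which overlaps the Ccnd3 span in the RefSeq annotation, had 1.94 and 1.74 scaled RPKM in siEsrrb libraries and 1.80 and 1.53 in siCtrl libraries.

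Ccnd3 has an internal start, and the groups were apart only downstream of it. With RPKM averaged over its transcripts, the log2 fold change of the gene was -0.29. The transcript that stood for the gene runs 6222 bases from the second start, while another (NM_001081635) begins 88416 bases further upstream. From the second start to the end, siEsrrb held 66.9% of siCtrl in replicate 1 and 69.4% in replicate 2. Over the stretch between the starts the levels were 0.432 and 0.587 scaled RPKM in siEsrrb libraries and 0.561 and 0.567 in siCtrl libraries, 77.0% and 103.6% of siCtrl, so the groups overlapped there. The 250 bases ahead of each start are shown because the part whose groups did not overlap begins at the second; capitals mark matches to the motifs described further on, here a CCAAT box at the second start and none at the upstream start (RefSeq, GRCm38.p6, plus strand).
Ccnd3 upstream start, chr17:47504801-47505050: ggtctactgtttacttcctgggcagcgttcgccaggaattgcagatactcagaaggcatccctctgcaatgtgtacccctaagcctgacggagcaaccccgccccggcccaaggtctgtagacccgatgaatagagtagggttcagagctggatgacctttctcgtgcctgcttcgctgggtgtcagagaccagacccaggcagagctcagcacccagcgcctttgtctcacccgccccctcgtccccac
Ccnd3 second start, chr17:47593217-47593466: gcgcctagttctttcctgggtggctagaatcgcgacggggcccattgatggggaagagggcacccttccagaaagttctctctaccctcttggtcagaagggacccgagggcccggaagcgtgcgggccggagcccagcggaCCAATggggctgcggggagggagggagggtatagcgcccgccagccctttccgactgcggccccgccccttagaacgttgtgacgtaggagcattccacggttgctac

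Ccnd1, the cyclin most closely tied to mitogen signals, had 3.41 and 2.54 scaled RPKM in siEsrrb libraries and 2.64 and 1.96 in siCtrl libraries. Replicate 1 was the higher library in both groups, and the groups overlapped. The log2 fold change was 0.31 (SE 0.19, limma adjusted p = 0.604), with 0.32 in replicate 1 and 0.30 in replicate 2, and it came to 0.13 without siEsrrb replicate 1 or siCtrl replicate 2 and to 0.49 without siEsrrb replicate 2 or siCtrl replicate 1. Ccnd2 showed the same layout at a lower level, with 0.727 and 0.417 scaled RPKM in siEsrrb libraries against 0.609 and 0.332 in siCtrl libraries (log2 fold change 0.14, SE 0.22). Its direction turned when siEsrrb replicate 1 or siCtrl replicate 2 was left out, over a range of -0.07 to 0.35.

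The G1 kinases showed 2 patterns. Cdk4, the partner of D-type cyclins and the highest of the 40 genes per length, had 13.6 and 12.3 scaled RPKM in siEsrrb libraries and 12.7 and 13.0 in siCtrl libraries (log2 fold change 0.0062, SE 0.12). The siEsrrb value was the larger of the pair in replicate 1 and the smaller in replicate 2. Cdk6, the alternative partner, was higher in siEsrrb within each replicate number, at 1.26 and 0.895 against 0.995 and 0.745 scaled RPKM in siCtrl libraries, with groups that overlapped (log2 fold change 0.20, SE 0.16). It came to 0.03 without siEsrrb replicate 1 and to 0.37 without siEsrrb replicate 2.

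Of the inhibitors, Cdkn1b (p27), which binds cyclin E with Cdk2, was well expressed, and its groups overlapped. It had 2.17 and 2.84 scaled RPKM in siEsrrb libraries and 2.08 and 2.81 in siCtrl libraries (log2 fold change 0.03, SE 0.18). The Cdkn2 inhibitors of Cdk4 and Cdk6 all lay below the filter and rested on few reads. Cdkn2a (p16 and p19ARF) had 0.123 and 0.183 scaled RPKM in siEsrrb libraries, from 51 and 241 reads, and 0.111 and 0.189 in siCtrl libraries, from 53 and 280 reads. Cdkn2b (p15) had 13 and 48 reads in siEsrrb libraries and 10 and 46 in siCtrl libraries; its values, 0.133 and 0.155 against 0.089 and 0.132 scaled RPKM, did not overlap between groups, but the 95% Poisson interval of siEsrrb replicate 1, 0.071 to 0.228, contains both siCtrl values. Cdkn2c (p18) gave 8 and 22 reads in siEsrrb libraries and 5 and 25 in siCtrl libraries. Cdkn2d (p19) gave 11 and 51 reads in siEsrrb libraries and 16 and 65 in siCtrl libraries. No difference in the Cdkn2 genes was detectable at this depth, with intervals that cover counting error only.

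The pocket proteins, which restrain E2F factors, were at low nascent levels. Rb1 lay below the filter, at 0.318 and 0.489 scaled RPKM in siEsrrb libraries and 0.339 and 0.493 in siCtrl libraries. Replicate 2 was the higher library in both groups, and siEsrrb stood at 93.8% of siCtrl in replicate 1 and 99.0% in replicate 2 (log2 fold change -0.02, SE 0.15, in the fit without a filter). Lpar6, whose annotated span overlaps Rb1, had 1.73 and 1.23 scaled RPKM in siEsrrb libraries against 1.03 and 0.986 in siCtrl libraries; whether reads from it were counted in Rb1 was not tested. Rbl2 (p130), the pocket protein of resting cells, was lower in siEsrrb within each replicate number, with 0.549 and 0.830 scaled RPKM in siEsrrb libraries and 0.704 and 1.03 in siCtrl libraries (log2 fold change -0.20, SE 0.18; groups overlapped). It was -0.03 without siEsrrb replicate 1 or siCtrl replicate 2, and -0.37 without siEsrrb replicate 2 or siCtrl replicate 1. Rbl1 (p107) had a log2 fold change of -0.06 (SE 0.08).

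The E2F family split by member. E2f2, an activator E2F, was lower: 0.390 and 0.435 scaled RPKM in siEsrrb libraries, from 191 and 676 reads, against 0.679 and 0.686 in siCtrl libraries, from 381 and 1200 reads. The siCtrl libraries lay close together and both siEsrrb libraries were below them. The log2 fold change was -0.37 (SE 0.08, limma adjusted p = 0.286), with -0.40 in replicate 1 and -0.34 in replicate 2; as the pseudocount is near the level of this gene, the scale understates it, and the ratio of scaled RPKM was 57.5% of siCtrl in replicate 1 and 63.5% in replicate 2. E2f2 also has an internal start, 8508 bases downstream of the upstream one, and here both parts were lower. Upstream of the second start siEsrrb had 54.7% and 62.9% of siCtrl, and from it to the end of the gene 59.8% and 64.0%. The 250 bases ahead of the second start, not printed, hold 1 CHR element and 3 CCAAT boxes. Those ahead of the upstream start are printed for comparison with Ccnd3, and hold 1 CCAAT box, in capitals (RefSeq, GRCm38.p6, plus strand).
E2f2 upstream start, chr4:136172024-136172273: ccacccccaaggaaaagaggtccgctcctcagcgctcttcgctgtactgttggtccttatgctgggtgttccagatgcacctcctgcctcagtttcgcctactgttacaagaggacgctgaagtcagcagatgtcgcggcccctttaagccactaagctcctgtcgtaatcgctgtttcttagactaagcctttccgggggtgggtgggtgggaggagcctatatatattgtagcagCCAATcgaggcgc

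E2f1, the best known activator, had 2.34 and 2.88 scaled RPKM in siEsrrb libraries and 2.68 and 3.10 in siCtrl libraries. It was lower in siEsrrb within each replicate number by -0.16 and -0.09 on the log2 scale, but replicate 2 of siEsrrb lay above replicate 1 of siCtrl, so that the groups overlapped (log2 fold change -0.13, SE 0.13, limma adjusted p = 0.760; -0.0017 without siEsrrb replicate 1 and -0.25 without siEsrrb replicate 2). Necab3, which overlaps E2f1, had a log2 fold change of -0.10 (SE 0.16). E2f6, a repressor that acts without pocket proteins, was higher: 1.18 and 1.08 scaled RPKM in siEsrrb libraries against 0.971 and 0.847 in siCtrl libraries, groups that did not overlap (log2 fold change 0.21, SE 0.08, limma adjusted p = 0.459; 0.19 in replicate 1 and 0.23 in replicate 2).

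E2f3, an activator E2F with an upstream and an internal promoter, differed in direction on either side of the internal start. Over the 77817 bases from the second start to the end, siEsrrb had 90.8% of siCtrl in replicate 1 and 97.7% in replicate 2. Over the 1672 bases between the starts, the levels were 8.46 and 6.09 scaled RPKM in siEsrrb libraries, from 291 and 665 reads, and 6.16 and 4.52 in siCtrl libraries, from 243 and 556 reads. That was 137% of siCtrl in replicate 1 and 135% in replicate 2, while siEsrrb replicate 2 lay just below siCtrl replicate 1, so that the groups overlapped. The whole gene, dominated by the long part, had a log2 fold change of -0.05 (SE 0.15). These parts are differences of recovered reads between nested transcripts and carry no test. The upstream start of E2f3 is printed because its 250 bases hold an E2F site, a CHR element and 3 CCAAT boxes, in capitals; the E2F site ends 4 bases before the start (RefSeq, GRCm38.p6, minus strand).
E2f3 upstream start, chr13:29986064-29986313: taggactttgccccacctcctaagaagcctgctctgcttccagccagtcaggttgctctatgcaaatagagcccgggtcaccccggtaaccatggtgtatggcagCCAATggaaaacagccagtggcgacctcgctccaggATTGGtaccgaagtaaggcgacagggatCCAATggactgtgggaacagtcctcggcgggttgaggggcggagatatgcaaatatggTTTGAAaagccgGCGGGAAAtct

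**Figure D2:**
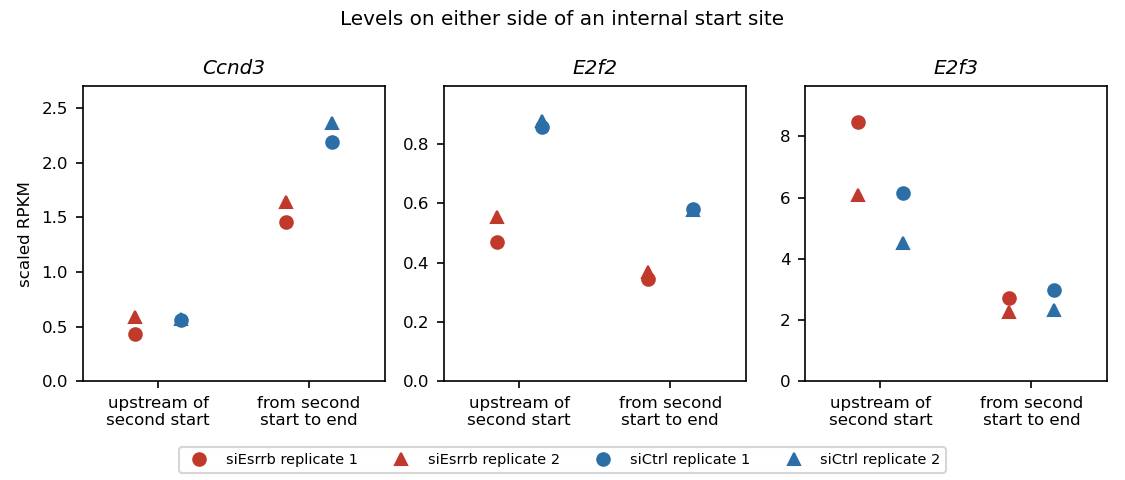
Scaled RPKM upstream of the second start and from the second start to the end for Ccnd3, E2f2 and E2f3, with siEsrrb in red left of siCtrl in blue, circles for replicate 1 and triangles for replicate 2. Both siEsrrb points lie below both siCtrl points downstream of the second start for Ccnd3 and on either side of it for E2f2; for E2f3 the siEsrrb point lies above siCtrl upstream within each replicate number.

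The remaining E2F genes had log2 fold changes within 0.1 of 0. The repressors E2f4 and E2f5 had log2 fold changes of 0.04 (SE 0.18) and -0.05 (SE 0.06), the atypical repressors E2f7 and E2f8 of 0.07 (SE 0.06) and -0.03 (SE 0.06), and the dimer partners Tfdp1 and Tfdp2 of 0.07 (SE 0.16) and -0.03 (SE 0.09). E2f7 differed little between replicates of a group, at 1.92 and 1.93 scaled RPKM in siEsrrb libraries and 1.79 and 1.83 in siCtrl libraries, without overlap between groups.

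The cyclins and the kinase of S-phase entry had log2 fold changes under 0.2 in size. Ccne1, which with Cdk2 starts replication, had 4.42 and 3.71 scaled RPKM in siEsrrb libraries and 4.21 and 3.86 in siCtrl libraries. The siEsrrb libraries enclosed both siCtrl libraries. Its log2 fold change was 0.0052 (SE 0.12, 95% interval -0.31 to 0.33; limma adjusted p = 0.993) and turned to -0.03 without scaling. Ccne2 was higher without overlap, at 1.38 and 1.30 against 1.23 and 1.15 scaled RPKM in siCtrl libraries (log2 fold change 0.12, SE 0.07). Cdk2 was lower without overlap, at 3.73 and 4.05 against 4.42 and 4.47 scaled RPKM in siCtrl libraries (log2 fold change -0.17, SE 0.09). Ccna2, the cyclin of S phase and G2, had 4.40 and 4.14 scaled RPKM in siEsrrb libraries and 3.97 and 4.30 in siCtrl libraries, and Cdc25a, the phosphatase that activates Cdk2, had a log2 fold change of -0.05 (SE 0.08).

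Among mitotic genes, Cdc20 and Plk1 stood out from their neighbours. Cdc20 (NM_023223), which activates the APC/C at the metaphase to anaphase switch, had 8.75 and 7.85 scaled RPKM in siEsrrb libraries, from 800 and 2276 reads, and 6.02 and 6.39 in siCtrl libraries, from 631 and 2088 reads. Both siEsrrb libraries were above both siCtrl libraries, and siEsrrb reached 145% of siCtrl in replicate 1 and 123% in replicate 2. The log2 fold change was 0.39 (SE 0.11, limma adjusted p = 0.361), with 0.51 in replicate 1 and 0.28 in replicate 2. Elovl1, an elongase of fatty acids whose annotated span overlaps Cdc20, was also higher in both siEsrrb libraries, at 1.14 and 1.22 against 0.899 and 0.978 scaled RPKM in siCtrl libraries (log2 fold change 0.22, SE 0.07). Whether reads of one were counted in the other was not tested.

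Plk1, the kinase of mitotic entry and spindle assembly, had 3.15 and 3.30 scaled RPKM in siEsrrb libraries and 2.46 and 2.80 in siCtrl libraries. The groups did not overlap, and the log2 fold change was 0.25 (SE 0.09, limma adjusted p = 0.442), with 0.31 in replicate 1 and 0.20 in replicate 2. The promoters of Cdc20 and Plk1 are shown as those of the mitotic genes with the largest differences, and that of Cdk1 as one with a small estimate. Capitals mark CCAAT boxes in all of them, a CHR element in Cdc20, and an E2F site and 2 CHR elements in Cdk1 (RefSeq, GRCm38.p6, with Plk1 on the plus strand and the others on the minus strand).
Cdc20, chr4:118437344-118437593: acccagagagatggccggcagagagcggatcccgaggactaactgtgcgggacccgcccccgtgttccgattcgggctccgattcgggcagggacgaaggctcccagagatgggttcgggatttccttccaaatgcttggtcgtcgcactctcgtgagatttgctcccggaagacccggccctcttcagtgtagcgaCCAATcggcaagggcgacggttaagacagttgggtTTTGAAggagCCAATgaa
Plk1, chr7:122159185-122159434: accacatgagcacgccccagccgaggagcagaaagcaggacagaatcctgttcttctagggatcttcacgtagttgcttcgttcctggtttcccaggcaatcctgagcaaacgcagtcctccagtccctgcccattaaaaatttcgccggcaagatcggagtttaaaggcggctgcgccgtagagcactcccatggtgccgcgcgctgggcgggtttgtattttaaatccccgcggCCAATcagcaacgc
Cdk1, chr10:69352913-69353162: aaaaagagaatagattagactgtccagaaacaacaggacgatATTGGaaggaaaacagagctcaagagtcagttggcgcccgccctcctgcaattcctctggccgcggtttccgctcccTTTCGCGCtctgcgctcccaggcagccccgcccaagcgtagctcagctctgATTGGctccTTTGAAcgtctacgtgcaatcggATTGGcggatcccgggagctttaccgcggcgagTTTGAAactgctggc

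Cdk1 itself, the kinase of mitosis, had 4.26 and 4.72 scaled RPKM in siEsrrb libraries and 3.89 and 4.75 in siCtrl libraries. The groups overlapped, and replicate 2 was the higher library in both (log2 fold change 0.05, SE 0.13, 95% interval -0.30 to 0.41; limma adjusted p = 0.906). Of its cyclins, Ccnb1 was higher without overlap, at 6.94 and 6.97 against 6.09 and 6.77 scaled RPKM in siCtrl libraries (log2 fold change 0.11, SE 0.10), and Ccnb2 had a log2 fold change of -0.09 (SE 0.11). Ccnf, an F-box protein of G2 that binds no CDK, had one of 0.04 (SE 0.09). The Aurora kinases of the spindle and of chromosome attachment had log2 fold changes of -0.07 (SE 0.07) for Aurka, without overlap, and -0.03 (SE 0.13) for Aurkb.

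The switches of Cdk1 activity had small log2 fold changes, some with wide intervals. Wee1, which places the inhibitory phosphate, had 3.66 and 3.65 scaled RPKM in siEsrrb libraries and 3.51 and 3.46 in siCtrl libraries, without overlap (log2 fold change 0.06, SE 0.08). Of the phosphatases that remove it, Cdc25b had a log2 fold change of -0.02 (SE 0.22, 95% interval -0.61 to 0.58). Cdc25c had one of -0.14 (SE 0.14, 95% interval -0.52 to 0.24). Fzr1 (Cdh1), which keeps the APC/C active in G1, had one of -0.02 (SE 0.11).

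Sorted by phase, the genes did not move together. The 7 tested G1 genes had a median log2 fold change of 0.03, with 0.09 in replicate 1 and 0.01 in replicate 2, and covered -0.44 (Ccnd3) to 0.31 (Ccnd1). The 11 S-phase genes had a median of -0.05, with -0.09 in replicate 1 and -0.03 in replicate 2; 7 of them (63.6%) were lower in both replicate numbers and 2 (18.2%) were higher, where 39.6% and 37.8% of all tested genes were. The 12 genes of G2 and mitosis had a median of 0.01, with 0.04 in replicate 1 and 0.02 in replicate 2, and the 5 genes given no phase had one of 0.04. With RPKM left unscaled, which put the median of all genes at -0.03, the G1 median turned to -0.0044 and the mitotic median to -0.02, and the S median was -0.09. With a library left out, the medians ranged from -0.03 to 0.07 for G1, from -0.05 to -0.0080 for S and from -0.03 to 0.09 for mitosis, the S median being nearest to 0 without siEsrrb replicate 1 (-0.0080) or siCtrl replicate 1 (-0.0089).

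**Figure D3:**
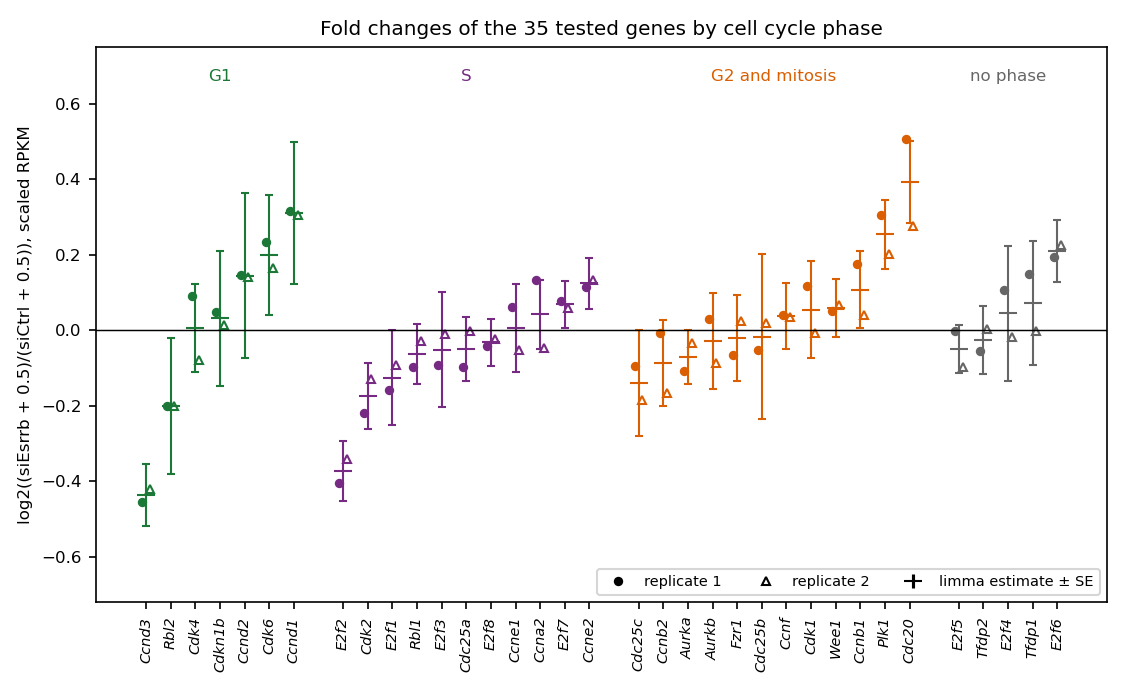
Log2 fold change (siEsrrb over siCtrl, scaled RPKM + 0.5) of the 35 tested genes by phase, with limma estimates ± SE as bars, filled circles for replicate 1 and open triangles for replicate 2. G1 genes spread from Ccnd3 at -0.44 to Ccnd1 at 0.31, E2f2 stands below the other S-phase genes, and Plk1 and Cdc20 above the other mitotic genes.

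The spread between replicate numbers was large beside these differences. The median size of the siEsrrb minus siCtrl difference was 0.069 on the log2 scale over the 35 genes, and that of the replicate 2 minus replicate 1 difference was 0.111; over all tested genes these were 0.101 and 0.113. The siRNA difference was the larger in 13 of the 35 genes (37.1%), against 48.2% of all tested genes. The replicate difference was often shared by the groups: 18 of the 35 genes were higher and 12 lower in replicate 2 in both siEsrrb and siCtrl. Of all 9739 tested genes, 3688 were higher and 3595 lower in this way, so such sharing was common outside these genes too. Among the strongest of the 35 were Cdc25b, higher by 0.46 in siEsrrb and by 0.39 in siCtrl, and Ccnd2, lower by -0.42 in siEsrrb and by -0.41 in siCtrl.

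Fold changes within replicate 1 and within replicate 2 ran alike over the 35 genes, which share their libraries, with a Pearson correlation of 0.871 and a Spearman correlation of 0.746, a description over genes that are not independent. Over all tested genes these were 0.523 and 0.684.

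**Figure D4:**
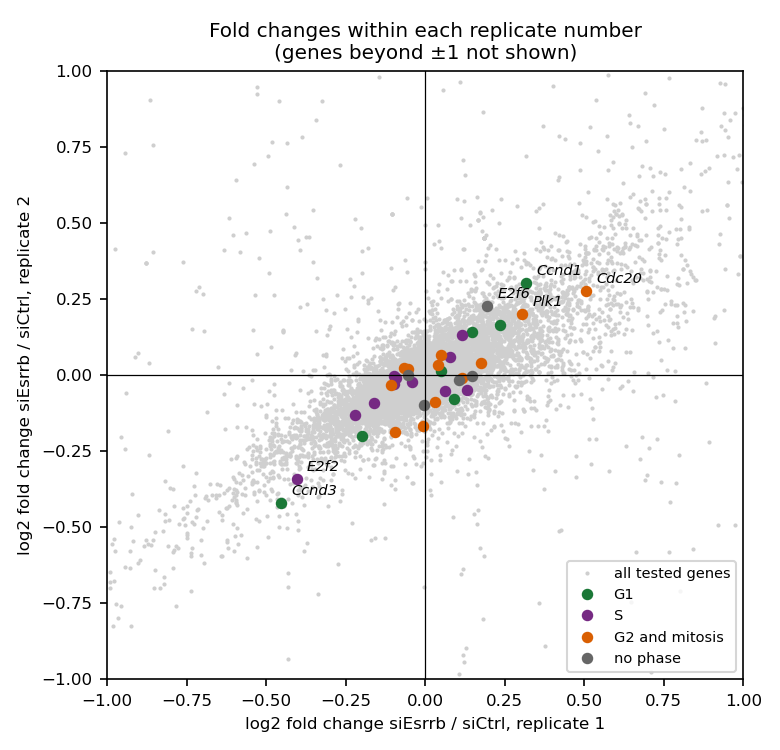
Log2 fold change (siEsrrb over siCtrl) in replicate 1, horizontal, against replicate 2, vertical, for the tested cell cycle genes coloured by phase over all tested genes in grey. Ccnd3 and E2f2 lie low in both replicates, and Cdc20, Ccnd1, Plk1 and E2f6 lie high in both.

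Short motifs of cell cycle promoters were counted in the 250 bases before each RefSeq start (GRCm38.p6), on both strands. A promoter was in the table for 30 of the 40 genes, 37 promoters in all, and a gene was counted when any of its promoters matched, while shares over all 32851 promoters are per promoter. The E2F site was searched as TTTCCCGC, TTTCGCGC, TTTGCCGC or TTTGGCGC, and was found in 8 of 30 genes (1.86% of all promoters), 5 of them among 9 S-phase genes. The CHR element, TTTGAA or TTCGAA, which binds the MuvB complex, was found in 9 of 30 genes (17.1% of all), 4 of them among 9 mitotic genes. CCAAT boxes, which bind NF-Y, were found in 18 of 30 genes (33.8% of all), among them all 9 mitotic genes with a promoter in the table. The Esrrb motif, searched as TNAAGGTCA, matched in 0 of 30 genes and in 1.14% of all promoters. No motif contains another, and a match is a run of letters, not a measured site.

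Further lists of cell cycle genes were read from the same fit, and in each 0 genes passed the adjusted test; the counts without overlap stand beside 21.9% higher and 22% lower among all tested genes. Of 30 replication licensing and fork genes, 4 (13.3%) were higher and 11 (36.7%) lower without overlap (median log2 fold change -0.04); Pola1, the catalytic subunit of DNA polymerase alpha, and Orc1, of the origin recognition complex, both had -0.27 (SE 0.08 and 0.09). Of 25 spindle and kinetochore genes, 0 were higher and 2 (8%) lower without overlap, both below the share of all genes (median -0.03), with Mad2l1, a checkpoint protein, at -0.09 and Bub1b, another, at -0.12. Of 8 genes of the MuvB complex, Myb family and Foxm1, 0 were higher and 3 (37.5%) lower without overlap (median -0.07). Lin52, a MuvB subunit, had 1.19 and 1.44 scaled RPKM in siEsrrb libraries and 1.91 and 1.88 in siCtrl libraries (log2 fold change -0.40, SE 0.09, limma adjusted p = 0.305), and Mybl1 had a log2 fold change of -0.31 (SE 0.20).

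Of 21 tested genes of APC/C and SCF ubiquitin ligases, 4 were higher and 4 lower without overlap, 19% each, near the 21.9% and 22% of all tested genes (median -0.01). Cks1b, which helps SCF recognise Cdkn1b, had a log2 fold change of 0.36 (SE 0.13), and Anapc10, an APC/C subunit, one of -0.21 (SE 0.08). Of 12 checkpoint kinases and Cdk1 regulators, 1 (8.33%) was higher and 2 (16.7%) lower without overlap (median -0.02), with Mastl at -0.08 and its substrate Ensa at 0.12. Of 9 tested genes among other cyclins, CDKs and inhibitors, 3 (33.3%) were higher and 2 (22.2%) lower without overlap (median 0.05), with the neuronal kinase Cdk5 at 0.25 (SE 0.09).

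The largest difference on these lists was that of Cdkn1c (p57), an imprinted CDK inhibitor. It had 2.33 and 1.37 scaled RPKM in siEsrrb libraries, from 130 and 243 reads, and 0.625 and 0.647 in siCtrl libraries, from 40 and 129 reads. Both siEsrrb libraries lay above both siCtrl libraries, at 373% of siCtrl in replicate 1 and 212% in replicate 2. The log2 fold change was 1.02 (SE 0.21, limma adjusted p = 0.283), again not past the adjusted test.

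**Figure D5:**
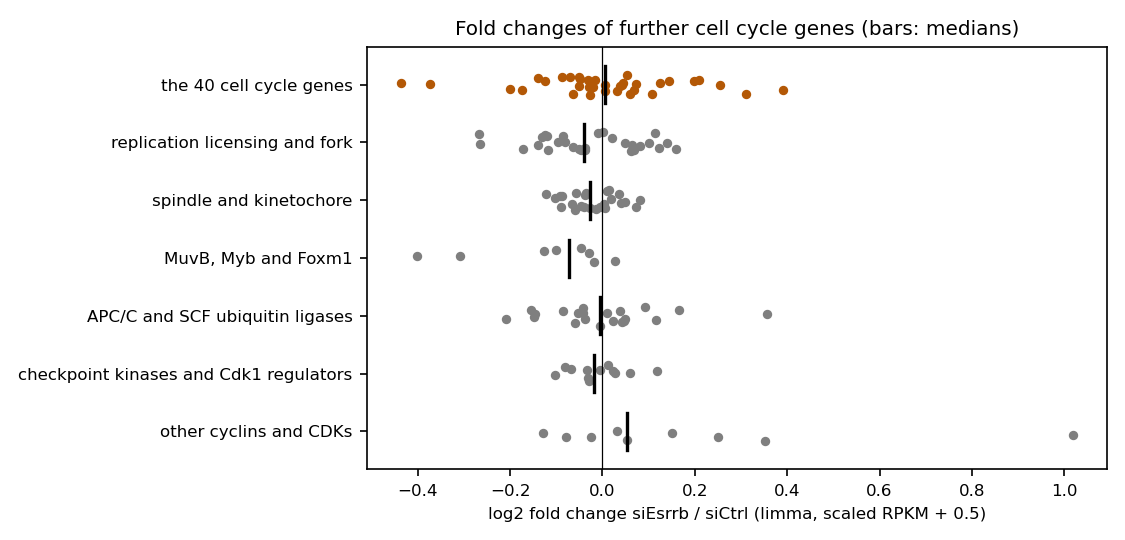
Log2 fold change (siEsrrb over siCtrl) of each tested gene in the 40-gene set, orange, and in 6 further lists of cell cycle genes, grey, with a black bar at each median and points spread vertically for legibility. The medians lie between -0.07 and 0.05, and Cdkn1c is the point at 1.02. Wee1 appears both in the 40-gene set and among the checkpoint kinases and Cdk1 regulators.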

How the data were processed

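The authors deposited nascent RNA-seq as 1 RPKM value for each of 34929 RefSeq transcripts and library. Per the submitters' processing notes, all 4 libraries went through CASAVA 1.4 and TopHat2 against mm9, with Bowtie 1.1.1 and Bowtie2 named for replicate 1 only. For the counting program, use of strand and reads with several alignments, a description was not given in the sources used here, so reads of overlapping genes cannot be told apart; 22 of the 40 genes overlap another annotated gene. A deposited series table equals the replicate 1 RPKM at all 34929 transcripts and was not used further.

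Symbols came from RefSeq (GRCm38.p6) for 34631 transcripts; 298 had none. RPKM gave whole reads for 31753 of 31771 transcripts above 0 (within 0.01 read), over gene spans that include introns. Lengths were chosen to make reads whole, or as a multiple that met the annotated span, so wholeness does not check the scale of the reads. Among 15772 single-transcript genes with reads, 74.7% of lengths came within 1% of that span, in part by this choice. The recovered reads served for depth, Poisson intervals (counting error only) and voom. RPKM were multiplied by median-of-ratios factors (0.925 to 1.09), called scaled RPKM. For the 9739 genes with a mean of at least 0.5, log2(scaled RPKM + 0.5) was tested with limma 3.58.1 in R 4.3.3 (eBayes with trend, 2 against 2, two-sided, Benjamini-Hochberg over all tested genes, threshold 0.05). This scale understates changes of low genes. Percentages of siCtrl are ratios of scaled RPKM within a replicate number. The limma and voom fits without a block were also run on simulated data. These had no replicate effect, and their fold changes were larger than those of the 40 genes. That run therefore does not check differences of the size described for these genes.

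The titles give a number for replicate 2 only, and nothing says that replicates came from separate cultures, so p-values may measure technical spread. The cell cycle genes and lists were chosen with earlier results of these data known. Full values are given for genes whose groups did not overlap with a log2 fold change of at least 0.2 in size, and for Ccnd1, Ccne1, Cdk1, Rb1 and E2f1 whatever their values; each further list is given with the 2 genes of smallest p. Nested starts were split for 7 of the 40 genes, and the parts are given only for Ccnd3, E2f2 and E2f3. Those of Cdkn2a, Cdkn2c, Tfdp1 and Tfdp2 are not shown. Ccnd3 and E2f2 were already named for their differences in these same libraries. The upstream part of E2f3 was singled out after the values of the parts were seen. Alternatives were 2 pseudocounts, no filter and a higher one, 2 other scalings, transcript means, a replicate block, voom with and without it, and each library left out.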

Additional observations from a re-analysis of the deposited data

How the results depend on the processing

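Of the 35 tested genes, 17 kept the direction of their log2 fold change in all 14 alternatives that gave a value; among them were Ccnd3, E2f2, Cdc20, Plk1, E2f6 and Ccnd1. The other 18 turned in 40 values, where all 35 genes together had 486, and the largest log2 fold change among these 18 was 0.14 in size. The groups of Ccnd3, E2f2, Cdc20, Plk1 and E2f6 did not overlap. Leaving out a library or adding the replicate block in limma could therefore not turn these genes. Without scaling, 4 genes were higher and 3 lower without overlap (all genes: 16.6% and 18.7%), the G1, S and mitotic medians were -0.0044, -0.087 and -0.025, and Ccne1 (-0.034), Ccnf (-0.00044), Cdk4 (-0.036) and Cdkn1b (-0.0044) turned. Voom turned Ccne1 (-0.0075) and Cdk4 (-0.0062).

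Same-numbered libraries deviated together over all tested genes (r = 0.378), but with 2 pairs and no label behind the number the pairing is not shown. The replicate block in limma gave 0 genes. Voom with the replicate block gave 2758 genes (28.3%) and 10 cell cycle genes: Ccnd1, Ccnd2, Cdk6, E2f6, Plk1 and Cdc20 higher, Ccnd3, E2f2, Rbl2 and Cdc25c lower; the mitotic median was 0.022, and Ccne1 (-0.0100), Cdk4 (-0.010) and Cdc25b (0.00079) turned. The cause was not tested.

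With each library left out in turn, limma called 0 to 12 genes (12 without siEsrrb replicate 2, 0 without siCtrl replicate 2), 11 to 15 genes were higher and 8 to 13 lower without overlap, which is easier with 3 libraries (all genes: 33.5% to 37.3% and 32.4% to 39.8%), and phase medians covered -0.029 to 0.075 (G1), -0.046 to -0.0080 (S) and -0.035 to 0.090 (mitosis). The ranges of turning genes were -0.066 to 0.35 for Ccnd2, -0.11 to 0.12 for Ccne1, -0.062 to 0.075 for Cdk4, -0.15 to 0.23 for E2f4, -0.11 to 0.26 for Tfdp1, -0.11 to 0.057 for Tfdp2, -0.13 to 0.0057 for Rbl1, -0.25 to 0.21 for Cdc25b, -0.15 to 0.097 for Aurkb, -0.0077 to 0.084 for Ccnf, -0.075 to 0.18 for Cdk1, -0.15 to 0.21 for Cdkn1b, -0.21 to 0.11 for E2f3, -0.12 to 0.073 for Fzr1, -0.0089 to 0.093 for Ccna2, -0.10 to 0.0012 for Cdc25a, -0.22 to 0.041 for Ccnb2 and -0.29 to 0.010 for Cdc25c. Depth limits the Cdkn2 genes, with 5 to 280 reads a library.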
